A study of Mus musculus with 960 samples.

Results

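Accessible windows that lay between genes, more than 10 kb but no farther than 100 kb from a gene start, made up 8824 of the 50000 windows listed for a mouse breast tumour, or 17.6% (95% exact interval 17.3 to 18.0). A window belonged to this distal intergenic class when its midpoint was outside the body of every protein-coding gene of the GENCODE M1 annotation and over 10 kb, up to 100 kb, from the closest start site of a protein-coding gene, on mouse build mm9. The rule used positions alone and no measured value. Each window was 500 bp long and centred on a summit, the point where the pooled reads piled up highest. By the study's methods, the cells came from a primary tumour of a 3-month-old MMTV-PyMT mouse, in which the MMTV promoter drives a viral oncogene in mammary epithelium, so all groups shared this transgene. GEO's labels gave 960 wells of 1 sorted cell each, 8 plates with the EpCam and HIF1a stains and 2 plates with the EpCam and CD45 stains. Tn5 transposase cuts DNA that is free of packed nucleosomes (ATAC-seq), and the authors called summits on the pooled cells. The list therefore is 1 sample with no replicate, score or read count, and the depth behind each window is unknown. It holds no comparison between stains or between levels of HIF1a. The intervals given here cover counting error only, and neighbouring windows are not independent.

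Distal accessible regions between genes are where many enhancers lie. An enhancer is a stretch of DNA that transcription factors bind and that raises the transcription of a gene at some distance, and its nucleosomes are shifted or lost where the factors sit. In mammary epithelium such factors include AP-1 (dimers of the Fos and Jun families), GRHL factors, which set epithelial identity, NFI factors, which act in milk gene transcription, C/EBP and STAT factors, and TEAD factors, which act with YAP. CTCF is a zinc-finger protein that holds chromatin loops in place and also sits far from genes. An accessible window is not by itself an enhancer, and the gene closest to a window need not be its target.

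The sequences below show what these windows look like on mm9. Each is the central 200 bp of a window, read 5′ to 3′ on the plus strand, with motif matches in capitals. The first group comes from the called peaks that kept the most windows of the class and from the region upstream of Epcam, and each was taken as the window whose centre held most different motifs. Near Ly6e, chr15:74763020-74763219 held an E-box of the CAGGTG type (on the minus strand, CACCTG), a STAT site (TTCCNGGAA) and an AP-1 site (TGACTCA, here as TGAGTCA). Near Bcl9l, chr9:44293897-44294096 held the core of the hypoxia-inducible factor site (ACGTG), a GRHL site and the letters TTGGCA that 1 subunit of an NFI dimer contacts, called the NFI monomer site below. Near Cd69, chr6:129185888-129186087 held a C/EBP site (TTGCNNAA) and an E-box. Near Irf2bp2, chr8:129189586-129189785 held an SP site (GGGCGG) and a C/EBP site. Near Atp6ap2, chrX:12077812-12078011 held an SP site, a GRHL site (AACNGGTT) and 2 NFI monomer sites. Upstream of Epcam, chr17:88012837-88013036 held an SP site, the hypoxia-inducible factor core read on both strands, and an E-box.
Ly6e upstream: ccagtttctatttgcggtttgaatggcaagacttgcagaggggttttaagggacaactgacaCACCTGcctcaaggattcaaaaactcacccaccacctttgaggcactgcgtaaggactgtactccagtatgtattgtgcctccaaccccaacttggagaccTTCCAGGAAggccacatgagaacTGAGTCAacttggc
Bcl9l upstream: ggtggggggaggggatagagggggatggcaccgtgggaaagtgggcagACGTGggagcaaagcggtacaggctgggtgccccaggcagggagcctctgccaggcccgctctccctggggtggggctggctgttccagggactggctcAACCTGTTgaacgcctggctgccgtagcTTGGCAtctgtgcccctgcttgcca
Cd69 downstream: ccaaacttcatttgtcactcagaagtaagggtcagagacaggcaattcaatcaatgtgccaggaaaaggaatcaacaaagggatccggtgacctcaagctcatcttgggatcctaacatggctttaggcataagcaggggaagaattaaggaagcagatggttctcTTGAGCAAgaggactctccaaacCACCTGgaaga
Irf2bp2 upstream: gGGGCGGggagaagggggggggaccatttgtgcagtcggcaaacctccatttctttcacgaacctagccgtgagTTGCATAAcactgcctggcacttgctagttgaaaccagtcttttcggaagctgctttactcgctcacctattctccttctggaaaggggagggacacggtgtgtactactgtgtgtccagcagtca
Atp6ap2 upstream: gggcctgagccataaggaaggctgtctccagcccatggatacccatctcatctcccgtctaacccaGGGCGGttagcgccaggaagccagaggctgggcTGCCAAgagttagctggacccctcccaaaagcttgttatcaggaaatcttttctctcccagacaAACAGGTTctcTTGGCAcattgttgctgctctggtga
Epcam upstream: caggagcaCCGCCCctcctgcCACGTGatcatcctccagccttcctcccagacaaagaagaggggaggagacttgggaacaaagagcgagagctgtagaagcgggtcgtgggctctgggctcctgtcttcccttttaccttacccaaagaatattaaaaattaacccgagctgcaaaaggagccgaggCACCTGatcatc

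The other 2 sequences show the motifs whose matches were most gathered at window centres. The first window by position with a CTCF match was chr1:34659267-34659466, 22829 bp downstream of the start of Fam123c, with the site on the minus strand. The first window by position with the full NFI palindrome in its centre was chr1:145788689-145788888, 62373 bp downstream of the start of Rgs2. This NFI window was chosen after the motif values were seen.
CTCF, Fam123c downstream: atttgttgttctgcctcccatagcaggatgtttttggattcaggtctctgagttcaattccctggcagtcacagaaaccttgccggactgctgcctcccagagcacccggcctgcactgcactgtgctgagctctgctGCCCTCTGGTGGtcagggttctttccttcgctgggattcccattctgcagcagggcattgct
NFI, Rgs2 downstream: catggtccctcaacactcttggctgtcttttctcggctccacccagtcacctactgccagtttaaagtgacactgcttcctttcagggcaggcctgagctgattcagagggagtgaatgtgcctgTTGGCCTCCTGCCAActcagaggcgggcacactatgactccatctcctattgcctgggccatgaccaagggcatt

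The class held fewer windows per length of DNA than sequence closer to genes and more than sequence farther away. Intergenic sequence 10 to 100 kb from starts covered 23.8% of the 2556 Mb of ungapped chromosomes 1 to 19 and X, and held 14.5 windows per Mb (exact Poisson interval 14.2 to 14.8). Intergenic sequence 1 to 10 kb from starts held 21.1 windows per Mb (20.4 to 21.8, 3582 windows), and intergenic sequence beyond 100 kb held 4.38 (4.23 to 4.53, 3364 windows). Inside gene bodies 10 to 100 kb from starts, 7634 windows gave 15.4 per Mb (15.0 to 15.7). This was less than 1 window per Mb above the class, with intervals that did not overlap. How distances are spread within that range was not matched. The members just inside the limits lay 10008 and 99997 bp from a start, and the nearest windows outside them 9996 and 100042 bp.

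Density fell with distance across the class. It was 16.8 windows per Mb at 10 to 20 kb (16.1 to 17.5), 13.8 at 50 to 60 kb (12.8 to 14.8) and 10.1 at 90 to 100 kb (9.09 to 11.2). The median window was 33193 bp from its nearest start (quartiles 19369 and 56162), and 69.1% lay within 50 kb. Density was alike on both sides of the start: 60.9% of the windows (5374) were upstream, and so was 60.9% of the class sequence, with 14.5 windows per Mb on either side. Intergenic gaps between genes that point at each other held 15.3 windows per Mb (14.6 to 16.0), against 14.4 (13.9 to 15.0) in gaps between genes that point apart and 14.3 (13.9 to 14.7) in gaps between genes that run the same way.

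**Figure D1:**
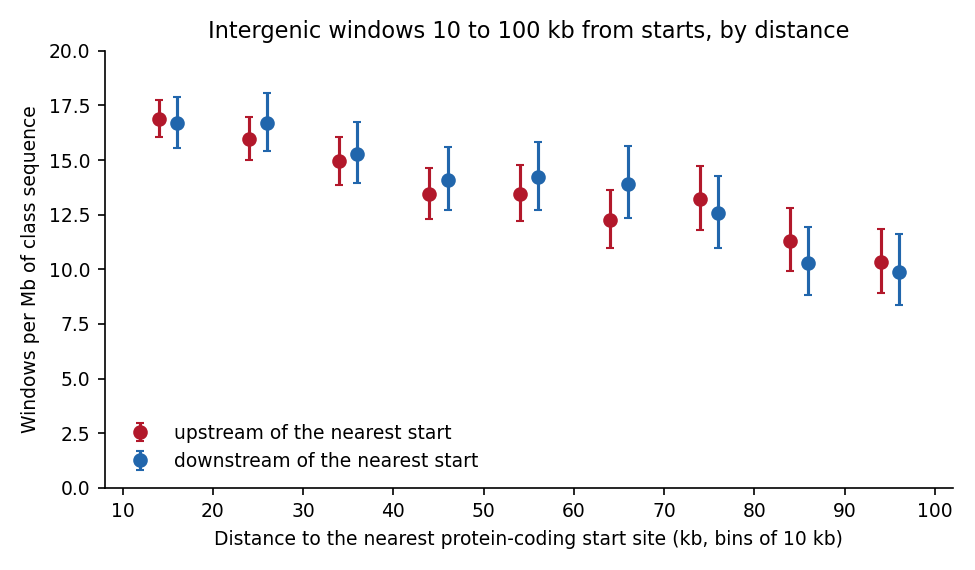
Windows per Mb of ungapped intergenic sequence in bins of 10 kb of distance from the nearest protein-coding start, upstream (red) and downstream (blue), with 95% exact Poisson intervals. Both sides fall together, and all bins taken over both sides lie between 10.1 and 16.8 windows per Mb.

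The windows had a moderate base composition and few resembled CpG islands, the CpG-rich stretches found at many promoters. Their median GC content was 50.2% (quartiles 47.0 and 53.8) with a median of 7 CpG per window, against 53.2% and 10 CpG over all 50000 windows. A composition like that of a CpG island (GC of 50% or more and an observed to expected CpG ratio of 0.6 or more) was met by 6.22% of members (5.73 to 6.75), against 28.2% of all windows. This share fell along the intergenic classes: it was 11.7% at 1 to 10 kb, 6.22% at 10 to 100 kb and 1.61% beyond 100 kb. Gene-body windows at 10 to 100 kb had 1.31%, so CpG-rich windows were more frequent between genes than inside them at that distance. GC content rose toward the midpoint, with 52.9% in the central 200 bp and 46.1% at 500 to 1500 bp away.

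Many members stood in groups. Another window midpoint lay within 5 kb of 57.4% of them (56.4 to 58.5), against 73.5% of intergenic windows at 1 to 10 kb, 48.6% beyond 100 kb, 56.4% of gene-body windows at 10 to 100 kb and 65.5% of all windows. The 8824 windows came from 7266 called peaks, since MACS2 can place several summits in 1 called peak, and 2744 windows (31.1%) belonged to a called peak that kept 2 or more windows, against 39.8% of all windows. Neighbouring summits in 1 called peak were a median of 400.5 bp apart (66 to 1473 bp), so 2105 windows (23.9%) overlapped another window in sequence.

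AP-1 sites were more frequent in the class than in the list as a whole. TGACTCA, searched on both strands of the 500 bp, was found in 1340 windows, 15.2% (14.4 to 16.0), against 10.8% of all windows. The share exceeded that of intergenic windows at 1 to 10 kb (13.1%, difference 2.12 percentage points, 95% Newcombe interval 0.76 to 3.43) and of gene-body windows at 10 to 100 kb (13.7%, 1.51, 0.43 to 2.58). Against intergenic windows beyond 100 kb (14.4%) the difference of 0.77 points had an interval of -0.66 to 2.15. Against all windows outside the class (9.87%) the difference was 5.31 points and was positive on 19 of 20 chromosomes. Among windows of 40 to 50% GC it was 3.17 points (1.93 to 4.46), against gene-body windows 2.39 (0.82 to 3.95), against intergenic windows at 1 to 10 kb 1.49 (-0.73 to 3.57) and against those beyond 100 kb 1.82 (-0.081 to 3.66), so the intervals of both intergenic contrasts included 0 at matched GC. Over the 10-kb bins of distance the AP-1 share stayed between 12.5% and 16.5% with overlapping intervals.

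Motifs of other epithelial factors differed less once base composition was held. GRHL sites were in 6.38% of members and 5.05% of all windows, and TEAD sites (CATTCCA) in 9.27% and 7.79%. Among windows of 40 to 50% GC, members minus other windows came to 0.65 points for GRHL (-0.25 to 1.60) and -0.29 for TEAD (-1.31 to 0.79). ETS sites (CNGGAAGT) were in 12.6% of members against 13.2% of all windows, C/EBP sites in 22.8% against 19.0%, STAT sites in 2.60% against 2.24%, the E-box in 37.3% against 36.9%, and GATA sites (AGATAA) in 16.9% against 13.6%. The hypoxia-inducible factor core, bound by the HIF1a protein that was stained, was in 26.1% of members against 29.4% of all windows. These letters hold a CpG, and members minus other windows was -4.11 points (-5.12 to -3.08), negative on all 20 chromosomes, but -0.10 points (-1.59 to 1.42) among windows of 40 to 50% GC. SP sites, a mark of CpG-rich promoters, were in 19.7% of members against 37.2% of all windows, and members minus other windows was -21.3 points over all GC contents and -1.17 points (-2.13 to -0.16) at 40 to 50% GC.

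CTCF sites were few but more frequent than in windows beyond 100 kb or inside gene bodies. The CTCF consensus was found in 2.54% of members (2.22 to 2.89), against 1.79% of all windows. This was more than in intergenic windows beyond 100 kb (1.28%, difference 1.26 points, 0.72 to 1.74, positive on 16 of 20 chromosomes) and in gene-body windows at 10 to 100 kb (1.53%, 1.01, 0.58 to 1.44, positive on 17), and less than at 1 to 10 kb (3.18%, difference -0.64, -1.34 to -0.012). The share was 3.12% at 10 to 20 kb, 0.911% at 50 to 60 kb (7 windows) and 3.42% at 90 to 100 kb (12 windows, interval 1.78 to 5.90), so the far bins rest on few sites. Downstream of the nearest start 3.04% of windows had a site, and upstream 2.21% (difference 0.83 points, 0.15 to 1.55). In windows with a single site, the consensus as written pointed to the nearest start in 47.5% (40.8 to 54.3). Windows with a CTCF site stood alone, with no other window within 5 kb, in 48.7% of cases, and windows without one in 42.4% (difference 6.24 points, -0.31 to 12.8).

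**Figure D2:**
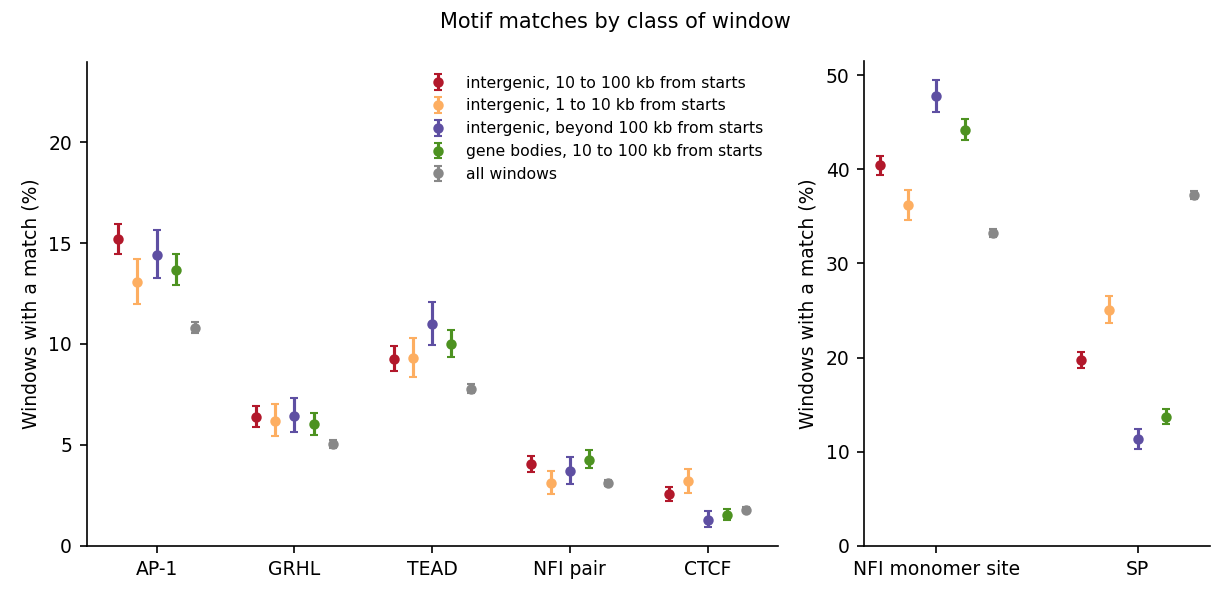
Share of windows with a motif match on either strand of the 500 bp, with 95% exact intervals, for intergenic windows 10 to 100 kb from starts (red), 3 comparison classes and all windows (grey). The AP-1 share of 15.2% and the NFI monomer share of 40.4% in the class exceed the 10.8% and 33.2% of all windows, and the SP share of 19.7% is below 37.2%.

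CTCF sites and, among motifs with no CpG, the letters of NFI factors were the most gathered at the centres of these windows. Matches per kb in the central 200 bp were compared with matches per kb at 500 to 1500 bp from the same midpoints. The NFI monomer site TTGGCA had 1.39 matches per kb at the centre against 0.563 in the flanks, a ratio of 2.46 (2.36 to 2.57, 2448 central matches). In the profile the density of this NFI monomer site peaked at 1.57 per kb in the 50-bp bin next to the midpoint. The CTCF site had a ratio of 7.04 (5.63 to 8.78), the SP site 3.54, the cyclic-AMP response element TGACGTCA 3.38, GRHL 2.06, AP-1 2.04 (1.88 to 2.21), the steroid receptor palindrome 2.02, ETS 1.83, STAT 1.59 and TEAD 1.36. RUNX (TGTGGTT) was even at 1.01, and GATA was lower at the centre with 0.518 (0.473 to 0.565). These ratios were not corrected for base composition, with 52.9% GC at the centre and 46.1% in the flanks. Words of 7 letters without CpG had a median ratio of 0.877 with 3 G or C and 1.11 with 4. AGATAA is mostly A and T, and its ratio was 0.554 at 1 to 10 kb, 0.478 beyond 100 kb and 0.539 in gene bodies. The part of base composition in the GATA ratio was not tested. The full NFI palindrome, with arms TTGGC and GCCAA, was present in only 16 members (0.181%, against 0.114% of all windows), with 11 matches in the centres and 21 in the flanks (ratio 5.24, 2.28 to 11.4).

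NFI binds as a dimer to inverted arms that are held at a fixed distance, and the spacing in these windows was examined for that reason. Among inverted pairs TGGC and GCCA with 0 to 12 bases between them, the spacer of 5 bases, that of the NFI palindrome, had the highest central density (0.125 per kb) and the highest ratio of centre to flank (4.00, 3.41 to 4.69). The next highest ratio was 3.85 for a spacer of 0 (2.53 to 5.74, 35 matches). Spacers of 12, 1, 10 and 3 had 3.25 (2.61 to 4.02), 3.14 (2.62 to 3.75), 2.95 (2.37 to 3.65) and 2.92 (2.35 to 3.61). The intervals of these and of spacer 0 overlapped that of 5 bases. The spacers of 4 and 6 had 2.15 and 2.62, and the lowest ratio was 1.73 for a spacer of 7 (1.38 to 2.15), so pairs of every spacing were gathered. The pair with 5 bases was found in 4.03% of members (3.63 to 4.47), against 3.11% of all windows. TTGGCA itself was found in 3566 members, 40.4% (39.4 to 41.4), against 33.2% of all windows, 36.2% at 1 to 10 kb, 47.8% beyond 100 kb and 44.2% in gene bodies at 10 to 100 kb. Inside the class its share was 37.7% at 10 to 20 kb (35.7 to 39.7) and 44.4% at 90 to 100 kb (39.2 to 49.8). Members minus all other windows was 8.76 points, positive on all 20 chromosomes, but 0.16 points (-1.57 to 1.90) among windows of 40 to 50% GC. The NFI motifs were added after the counts of 7-letter words had been seen.

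The NFI letters were also gathered in the other distal classes, more than at starts. The ratio of centre to flank for TTGGCA was 2.14 (1.98 to 2.31) at 1 to 10 kb, 2.83 (2.65 to 3.02) beyond 100 kb and 2.60 (2.48 to 2.72) in gene bodies at 10 to 100 kb, while windows within 1 kb of a start had 0.949 (0.904 to 0.995). The pair with 5 bases between its arms was gathered at starts too, with 2.00 (1.67 to 2.37), against 4.09, 5.70 and 5.34 in the distal classes in the same order. AP-1 likewise had 2.06, 1.87 and 2.02 in the distal classes and 0.866 (0.789 to 0.949) within 1 kb of starts. The CTCF ratio was 8.54 at 1 to 10 kb, 5.11 beyond 100 kb and 5.32 in gene bodies, with intervals that overlapped that of the class.

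**Figure D3:**
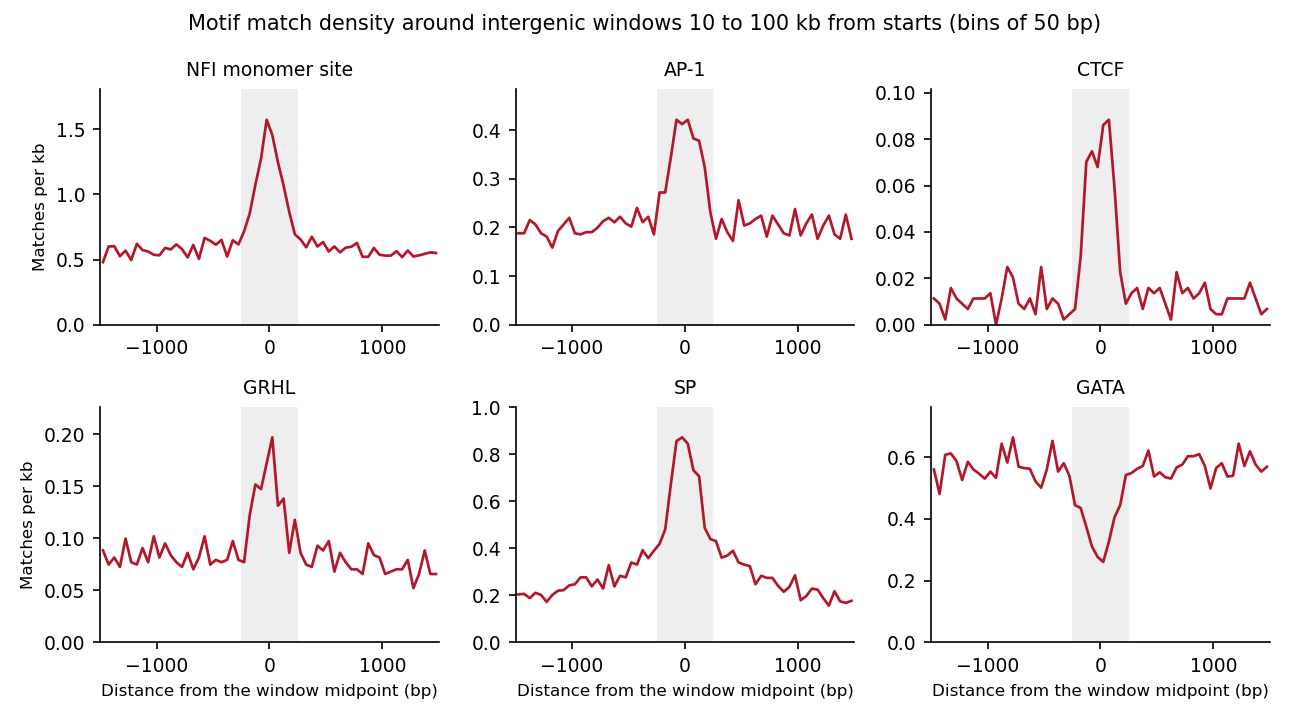
Matches per kb (both strands) around the midpoints of the 8824 windows, in bins of 50 bp out to 1500 bp on each side, with the 500-bp window shaded. The NFI monomer site, AP-1, CTCF, GRHL and SP rise inside the window, and GATA falls to about 0.518 of its flank density in the central 200 bp.

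The NFI motifs above were taken up because of the counts of all 7-letter words in these same windows, which are therefore no separate evidence for them. Of 8078 words with at least 100 flank matches, the 100 with the highest ratio of centre to flank all held a CpG. The GRHL core AACCGGT was among them, at rank 36 with 4.38. Among the 5432 words without CpG, whose median ratio was 0.863, the highest was CTGCCAA (reverse complement TTGGCAG) with 3.25, then CTGCCAG with 3.12 and CTTGGCA with 3.01. The letters TGGC, on either strand, stood in 18 of the first 20 of these words, against 3.35% of all words without CpG. The AP-1 word TGACTCA was 59th with 2.04, but 3rd among the 1760 words that, like it, held 3 G or C and no CpG, after TGCCAAA and TTGCCAA. The lowest of all was ATATATA with 0.0979.

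Windows with an AP-1 site differed from the others in a minority of the motifs compared. CTCF sites were found in 1.12% of the 1340 windows with AP-1 and in 2.79% of the 7484 without (difference -1.67 points, -2.27 to -0.87). SP sites were likewise less frequent with AP-1 (16.5% against 20.3%, -3.82, -5.92 to -1.55), and the E-box more frequent (41.6% against 36.6%, 5.07, 2.24 to 7.94). Most motifs, among them TEAD (10.0% against 9.14%) and the NFI monomer site (40.9% against 40.3%), differed by intervals that included 0. Base composition was not matched in this comparison. The NFI pair with 5 bases between its arms was less frequent with AP-1 (2.84% against 4.25%, -1.41, -2.32 to -0.29). STAT sites were also less frequent (1.79% against 2.74%, -0.95, -1.65 to -0.021), and NF-kB sites more frequent (7.24% against 5.56%, 1.68, 0.30 to 3.27). A single AP-1 site was present in 1185 windows (13.4%), 2 sites in 1.55% and 3 or more in 18 windows.

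Members were denser beside genes whose own start was accessible. The nearest protein-coding gene had a window within 1 kb of one of its start sites for 71.9% of members (71.0 to 72.9), against 85.1% of all windows, which include those start windows themselves. The same share was 73.1% for intergenic windows at 1 to 10 kb, 68.0% beyond 100 kb and 79.3% in gene bodies at 10 to 100 kb. Density was a separate measure: sequence nearest to genes with an accessible start made up 47.3% of the class and held 22.1 members per Mb (21.5 to 22.6). Sequence nearest to the other genes held 7.74 (7.44 to 8.05). In all, 3574 of 22350 protein-coding genes (16.0%) were nearest to a member, and 67.3% of these had an accessible start, against 52.4% of all protein-coding genes. Of the 22350 genes, 7628 had no sequence in the class and could not be nearest to a member. AP-1 sites were in 16.1% of the 6348 members next to a gene with an accessible start and in 13.0% of the other 2476 (difference 3.09 points, 1.45 to 4.65, positive on 19 of 20 chromosomes). CTCF sites did not follow this (2.55% and 2.50%, difference 0.048, -0.73 to 0.74), nor did the NFI monomer site (40.1% and 41.2%, -1.09, -3.38 to 1.19). CpG-island composition went the other way, with 5.50% and 8.08%.

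A few genes were nearest to many members. While 1708 genes were nearest to 1 member and 1400 to 2 to 4, 76 genes were nearest to 10 or more and together took 964 members. The gene with most was Tmem189, which encodes an enzyme of plasmalogen synthesis, with 23 windows from 17 called peaks, all upstream of its start and 12042 to 99796 bp away (chr2:167527114-167615367). Here the name depends on 907 bp: the start of Cebpb, which encodes a transcription factor needed in mammary epithelium, was that much farther from every one of the 23 windows. Chd2, which encodes a chromatin remodeller, had 22 windows, 21 of them upstream. Azin1, an inhibitor of the antizyme that restrains polyamine synthesis, and Irf2bp2, a transcriptional co-repressor, had 21 each, on both sides of the gene, and 14 of the windows of Azin1 had Klf10 as the next nearest gene. AP-1 sites were in 9 of the 21 windows of Irf2bp2.

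Ppara, a nuclear receptor that drives fatty acid oxidation, had 20 windows, all upstream and none with an AP-1 site. The same gap holds the 16 windows of Wnt7b, a Wnt ligand, which starts on its other side, and 1 window there was 65 bp from the start of the microRNA gene Mirlet7c-2. 6430527G18Rik had 19 windows, of which 16 were downstream. Phlda1, which encodes a pleckstrin-homology-like protein, had 19, all downstream. Hey1, a repressor induced by Notch, had 18, none with AP-1 but 5 with a TEAD site and 5 with an ETS site. Bcl2l14, of the BCL2 family, had 17, all upstream.

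**Figure D4:**
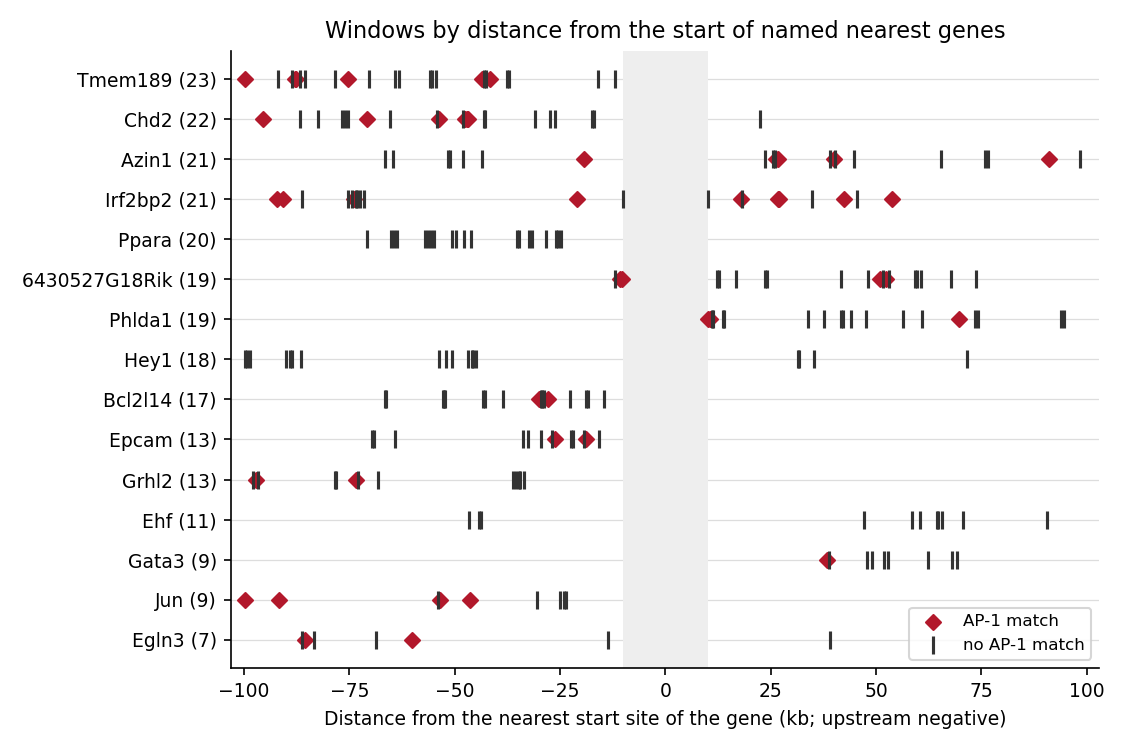
Each mark is a window placed by its distance in kb from the nearest start site of the gene named at the left (upstream negative), with the number of windows after the name. Diamonds are windows with an AP-1 match, bars are windows without one, and the shaded strip is the 10 kb on either side of the start that the class leaves out. The 23 windows assigned to Tmem189 and the 20 of Ppara lie only upstream, and the 19 of Phlda1 only downstream.

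Genes of luminal mammary epithelium had the highest density of members among 10 gene lists, which were chosen with earlier results of these data known. For each list the members nearest to its genes were divided by the class sequence nearest to them, which takes account of how much sequence each gene has at these distances. The luminal list had 97 members near 19 of its 30 genes, 71.1 per Mb (57.6 to 86.7), against 14.5 per Mb for all protein-coding genes. Of its genes 63.3% had a member, against 16.0% of all genes, but these shares take no account of sequence. Class sequence was absent for 3 of the 30 luminal genes and for 7628 of all 22350. The median per gene was 32.3 kb in the luminal list and 7.39 kb over all genes. Epcam, the epithelial adhesion protein, Grhl2, a GRHL factor, and Tcfap2c, the factor AP-2 gamma, had 13 each. Ehf, an epithelial ETS factor, had 11, Gata3, the luminal GATA factor, 9, and Elf5, an ETS factor of the alveolar lineage, and Kit, a receptor of luminal progenitors, 7 each. These last 4 genes were named after their values were seen. Other genes of the list, also named after the fact, had few. Krt19 and Krt8 had 1 each in 12.3 and 17.0 kb of class sequence, or 81.4 and 58.9 per Mb. Esr1 had 1 in 29.3 kb (34.1 per Mb) and Prlr 1 in 90 kb (11.1 per Mb). Pgr, Cited1 and Foxa1 had 0 in 90, 43.1 and 38.9 kb. Prlr and Pgr, each with 90 kb, thus lay below the 71.1 per Mb of the list. In the shorter stretches, counts of 0 or 1 do not show a departure from it. The list of epithelial transcription factors and AP-1 had 83 members near 18 of 29 matched genes, 48.8 per Mb (38.9 to 60.5). This interval overlapped that of the luminal list. Id2, an inhibitor of basic helix-loop-helix factors, had 12, and Jun and Fos, whose proteins form AP-1, had 9 and 8. Nfib, which encodes an NFI factor, had 4 (named after its value was seen). Of the milk and secretory list 4 of 14 genes had members, with 17 in all (46.6 per Mb, 27.2 to 74.6, which also overlapped the luminal interval). Btn1a1, a milk fat globule protein, had 7 of these 17, from 4 called peaks, in 12.5 kb of class sequence. Plin2, which coats lipid droplets, and Xdh, which shapes milk fat globules, had 4 each. The casein genes Csn1s1, Csn1s2a, Csn1s2b, Csn2 and Csn3, and Glycam1 and Lalba, had class sequence but 0 members and no accessible start. Their class sequence ran from 3.185 kb at Lalba to 93.0 kb at Glycam1. A 0 at any single one of them does not show a density below that of all genes.

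Hypoxia genes had more members per Mb than all protein-coding genes together and fewer than the luminal list. Members lay nearest to 16 of 32 genes of the hypoxia list, 42 windows at 29.4 per Mb (21.2 to 39.7). That interval included the 22.1 per Mb of sequence nearest to genes with an accessible start, which 30 of the 32 had. With the first window of each called peak the hypoxia list had 27.3 per Mb (19.4 to 37.3), against 11.9 for all genes. With overlapping windows merged it had 29.4 (21.2 to 39.7), against 14.2. Among called peaks with 2 or more windows the excess was not seen: the hypoxia list had 5 windows at 3.49 per Mb (1.13 to 8.16), an interval that included the 4.52 of all genes. There the luminal list had 30.0 (21.6 to 40.8) and the epithelial factors 22.3 (15.8 to 30.6). Egln3, an oxygen-sensing prolyl hydroxylase, had 7, Pfkfb3, a regulator of glycolysis, 6, and Ddit4, a stress-induced inhibitor of mTOR, 5. The basal and myoepithelial list had 12 windows near 6 of 20 genes (20.8 per Mb, 10.8 to 36.4), with 4 at Sox10, 3 at Sparc and 2 at Trp63, which encodes the basal factor p63. In the endothelial list 7 of 14 genes had members (23.8 per Mb, 13.9 to 38.1), with 5 each at Erg, an ETS factor, and Flt1, a VEGF receptor, and 3 at Sox17. The intervals of the basal and endothelial lists included the 14.5 per Mb of all genes. Intervals of the fibroblast list (12.5 per Mb, 7 of 16 genes, with 5 windows at Col1a1, 3 at Fbln2 and 2 at Postn), the neuronal list (11.2, 3 of 16, with 3 each at Dlx2 and Snap25 and 1 at Nrgn) and the pan-immune list (15.6, 3 of 16, with 2 at Cytip and 1 each at Laptm5 and Vav1) also included it. The housekeeping list reached 48.0 per Mb (25.5 to 82.0), an interval that overlapped that of the luminal list, but on 0.271 Mb: 11 of its 20 genes had no sequence in the class, and its count was 13 windows, among them 4 at Eef1a1 and 3 at Actb. Starts of 29 of 30 luminal, 28 of 29 epithelial factor and all 20 housekeeping genes were accessible, against 5 of 16 pan-immune and 4 of 16 neuronal ones. The order did not follow this throughout: 30 of 32 hypoxia genes had an accessible start and 29.4 members per Mb, 2 of 14 endothelial genes had one with 23.8 per Mb, 2 of 16 fibroblast genes with 12.5, 12 of 20 basal genes with 20.8 and 6 of 14 milk genes with 46.6. The part of an accessible start in the order of the lists was not tested.

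**Figure D5:**
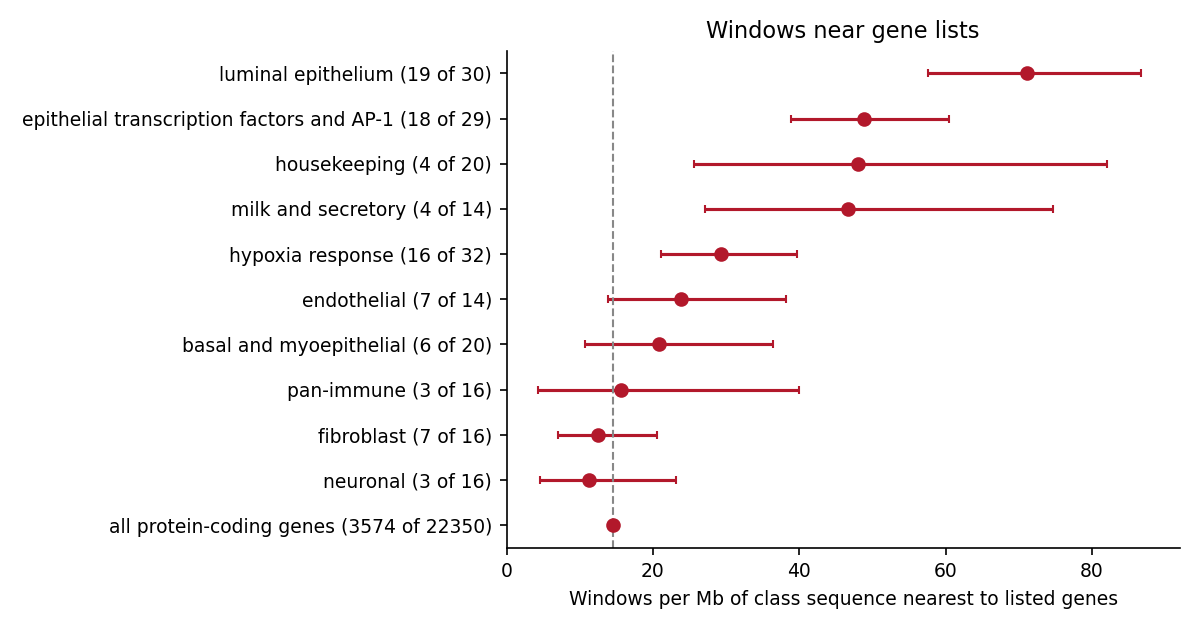
Members per Mb of class sequence nearest to the genes of each list, with 95% exact Poisson intervals; the numbers after each name are genes nearest to a member and genes matched. The dashed line is the value for all protein-coding genes, 14.5 per Mb, and the luminal epithelium list is at 71.1.

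The genes of the 3 stained proteins differed. Epcam (chr17:88035319-88050446, plus strand), which marks the epithelial tumour cells, had 13 windows of the class from 9 called peaks, all upstream, 15845 to 69587 bp from its start (chr17:87965482-88019723). Of these 2 held AP-1 sites, 3 TEAD sites and 1 a GRHL site. Hif1a, which encodes the stained hypoxia factor, had none in 91.7 kb of class sequence, and Ptprc, which encodes CD45, had none in 39.2 kb. A count of 0 in these stretches allows up to 32.7 and 76.5 windows per Mb (3 counts each), above the 14.5 of the class, so a lower density than average was not detectable. The start of Hif1a was accessible and that of Ptprc was not.

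The called peaks that kept most members spread over several kb. The widest held 9 windows over 5823 bp (chr15:74760777-74766599), 19131 to 24454 bp upstream of Ly6e, which encodes a GPI-anchored surface protein of the Ly6 family. Another held 8 windows over 4575 bp (chr9:44291797-44296371) upstream of Bcl9l, a co-activator of beta-catenin, with a median GC content of 56.7%. The next 3 held 7 windows each: 1 downstream of Cd69, an early activation marker of lymphocytes (chr6:129185738-129188677, no AP-1 site), 1 upstream of Irf2bp2 (chr8:129188492-129192807), and 1 on chromosome X upstream of Atp6ap2, a subunit of the vacuolar proton pump (chrX:12077662-12080383). All windows of these 5 called peaks belonged to the class. Of the 7266 called peaks with a member, 6099 held 1 member and 901 held 2.

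Density varied by chromosome, and X stood below every autosome. On autosomes it ran from 11.6 members per Mb on chromosome 14 to 21.7 on chromosome 17, with a median of 15.4. Chromosome X held 3.68 per Mb of its 49.7 Mb of class sequence (3.17 to 4.26), which is 0.240 of the autosome median. The class took 17.7% of windows on autosomes alone and 17.6% with X included. Density of the other windows on X was not computed, so the low value there cannot be called particular to the class. The share with AP-1 ran from 9.31% on chromosome 19 to 20.5% on chromosome 12.

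Although outside protein-coding genes, some windows lay at other genes. The bodies of noncoding genes or pseudogenes held 7.62% of members (7.07 to 8.19), 3.45% were within 1 kb of the start of a long noncoding RNA, and 27 windows were within 1 kb of the start of a microRNA gene. Among the named microRNA genes, Mir203, whose product restrains stem-cell programmes in epithelia, had windows at 0.235 and 0.569 kb, Mirlet7i at 0.191 and 0.436 kb, Mir148a at 0.760 kb, Mir17 at 0.868 kb and Mir760 at 0.372, 0.431 and 0.586 kb. These microRNAs were named after their values were seen.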

How the data were processed

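The study's methods state that after adapter trimming the authors aligned their reads to mm9 (Bowtie2 version 2.1.0), discarded low-quality, duplicate (Picard version 1.79) and mitochondrial reads, pooled the single cells of each tissue condition, called summits on that pool with MACS2, whose version is not given in the sources used here, widened each summit to 500 bp and kept the 50000 windows of lowest q-value. Only the deposited positions and names were used; they hold no score, so depth and its precision are unknown. Whether the wells labelled EpCam and CD45 entered the pool is not stated in the sources used here. The cut at 50000 windows, and the calling on a pool, favour regions open in many cells.

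Windows were set against GENCODE M1 genes and the mm9 (NCBIM37) genome on chromosomes 1 to 19 and X. Start sites were the 70018 distinct starts of all transcripts of protein-coding genes. Ungapped sequence meeting the same rule gave the density per Mb. The 24 motifs were searched as exact consensus matches on both strands, CTCF and NF-kB with degenerate letters. A gene start was called accessible with a window midpoint within 1 kb of any of its start sites. Shares have exact (Clopper-Pearson) 95% intervals, densities and ratios of centre to flank exact ones, and differences of shares Newcombe intervals. No test across samples was possible with 1 pooled list, and no p-value was computed. Scripts were tested on simulated windows and motifs (Python 3.11.15, numpy 2.4.6, pandas 2.3.3, scipy 1.17.1).

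The members, the 10 gene lists (208 entries) and the rules were chosen with earlier results of these data known, and the NFI monomer site and pair after the counts of 7-letter words were seen. Named genes were the 10 nearest to most members, the 3 of each list nearest to most members, Epcam, Hif1a and Ptprc, and the genes nearest to the 5 called peaks with most members; some genes that the rule names are not reported here, and every other gene named, among them Cebpb, Klf10, Wnt7b and Mirlet7c-2, was picked after its values were seen, apart from Fam123c and Rgs2, which lie nearest to the printed CTCF and NFI windows. In the lists, Spi1, Tfap2a and Tfap2c were matched as Sfpi1, Tcfap2a and Tcfap2c, and Cebpd was not matched. A planned share of midpoints in repeats was not computed, because the genome used here does not mark repeats. Alternatives changed the start sites, gene bodies, merging of windows, called peaks kept, distance, chromosomes, GC content and motif setting.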

Additional observations from a re-analysis of the deposited data

How the results depend on the processing

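Over the alternatives, 46 of 73 values stayed inside the 95% interval of the value reported and 27 moved out of it. The class took 16.3% of windows and 14.1 per Mb with the bodies of genes of every biotype left out, 18.9% and 11.9 per Mb with the first window of each called peak, 13.8% and 4.52 per Mb with only called peaks of 2 or more kept windows, and 13.0% and 13.8 per Mb beyond 20 kb. Density was 14.2 per Mb with overlapping windows merged and 15.5 on autosomes alone. With only called peaks of 2 or more windows, the AP-1 share was 14.2%, the CTCF share 1.64%, the NFI monomer share 36.4%, the nearest gene had an accessible start for 73.5%, median GC was 50.8%, and a neighbour within 5 kb was present in 100% by construction. AP-1 shares were 16.3% at 40 to 50% GC and 7.59% in the central 200 bp, where shorter sequence was searched, and CTCF shares 1.54% in the central 200 bp and 11.0% with 1 mismatch. The NFI monomer share, examined after seeing the data, was 42.8% at 40 to 50% GC and 23.5% in the central 200 bp. A neighbour was present in 48.2% with the first window of each called peak and in 81.2% within 20 kb. The nearest gene had an accessible start for 71.0% with start sites of protein-coding transcripts alone (8879 members, of which 8688 were shared), 73.0% beyond 20 kb and 82.2% with a window within 10 kb. Among called peaks with 2 or more windows, AP-1 in members minus gene-body windows was 1.53 points (-0.43 to 3.45), an interval that included 0, and CTCF in members minus windows beyond 100 kb was 0.88 points (-0.014 to 1.56).

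No paired analysis was possible because the list is 1 pool of cells with no replicate. The share of midpoints in repeats was not run. Unknown depth, calling on a pool and overlapping windows limit all values, and the nearest gene is a label of position only.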
